A study of Mus musculus with 8 samples.

Results

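*Meis1*, *Meis2*, *Meis3*, *Pbx2*, *Pbx3*, *Pbx4*, *Pknox1* and *Pknox2* encode homeodomain transcription factors of the TALE class that act as partners of Hox proteins. These 8 genes were taken by name from the 49315 genes listed in the count tables, through the Ensembl identifier of each symbol, by a rule that uses no measured value. The choice of these genes, and of the gene lists used below, was however made with earlier results of these data known. The tables come from poly-A RNA-seq of whole mouse hearts at embryonic day 9.5 (E9.5), with 4 wild-type and 4 homozygous Tbx20EH1Mut libraries, each made from 3 hearts that had been pooled. Tbx20 is a T-box transcription factor of the heart, and in Tbx20EH1Mut animals germline genome editing had replaced 2 amino acids of its engrailed homology 1 (EH1) domain, the stretch that binds TLE corepressors. The edited line was kept on a C57BL/6J background by back-crossing, and both genotypes were untreated and of the same age. The substitution is present in every cell of the embryo and not only in the heart, mutant embryos are growth-retarded at this age, and the replaced codons cannot be seen in a count per gene. The comparison asks how the messages for these Hox partners differ between the genotypes.

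TALE homeodomains carry an extra loop of 3 amino acids between their first and second helices. MEIS and PKNOX (also called PREP) proteins bind PBX proteins through the same type of amino-terminal domain, and this contact favours the nuclear location of PBX. PBX proteins in turn bind DNA together with Hox proteins of the anterior paralog groups, so the supply of MEIS, PBX and PKNOX proteins in a cell bears on the Hox complexes that can form. In the embryo, *Meis* and *Pbx* genes are known for roles in the outflow tract, in the second heart field that feeds it, and in the pharyngeal region beside it.

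The homeodomain is what the 8 genes have in common, and its last part holds the recognition helix that contacts DNA. The stretches of 66 coding bases that follow are taken from there. They show how near the messages of paralogs are to each other, and 1 codon at which *Pbx* genes differ from the other members. Each was read 5′ to 3′ on the coding strand from the GENCODE M21 transcript model on GRCm38 and joins 2 exons. Capitals mark 1 codon of the recognition helix, which by the standard code is an isoleucine codon in *Meis* and *Pknox* genes and a glycine codon in *Pbx* genes. The 4 genes whose level differed between the genotypes (*Meis2*, *Meis3*, *Pbx4* and *Pknox2*) are given with *Meis1* and *Pbx2*, their close relatives that did not pass the test.
Meis1: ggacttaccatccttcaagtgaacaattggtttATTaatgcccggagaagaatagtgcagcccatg
Meis2: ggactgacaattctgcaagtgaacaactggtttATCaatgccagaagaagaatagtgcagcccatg
Meis3: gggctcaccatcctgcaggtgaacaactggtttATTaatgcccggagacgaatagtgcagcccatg
Pbx2: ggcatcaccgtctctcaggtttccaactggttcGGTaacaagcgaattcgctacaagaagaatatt
Pbx4: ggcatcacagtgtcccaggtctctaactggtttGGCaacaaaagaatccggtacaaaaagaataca
Pknox2: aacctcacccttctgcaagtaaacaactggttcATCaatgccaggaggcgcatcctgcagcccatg

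The stretch of *Meis1* lies at chr11:18885615-18905717 and that of *Meis2* at chr2:115868767-115921700, both on the minus strand, in exons 9 and 10 of 12. That of *Meis3* lies at chr7:16183839-16184074 on the plus strand, in exons 9 and 10 of 13. The *Pbx2* stretch lies at chr17:34594700-34594848 and the *Pbx4* stretch at chr8:69866586-69870076, both on the plus strand and in exons 5 and 6. The *Pknox2* stretch lies at chr9:36894462-36895339 on the minus strand, in exons 11 and 12. Within the MEIS genes 86.4 to 90.9% of the 66 bases were the same, *Meis2* and *Pknox2* shared 78.8%, and *Meis2* and *Pbx4* shared 47.0%. Over the whole transcripts, the longest run of identical bases between any pair of the 8 genes was 42, between *Meis2* and *Pknox2*. Promoter windows of 250 bases upstream of the RefSeq start were found in RefSeq's GRCm38 table for 5 members (*Meis1*, *Meis2*, *Meis3*, *Pbx2* and *Pbx4*). Those of *Meis2*, *Meis3* and *Pbx2* lie inside the Ensembl spans of these genes, which begin further upstream. In none of them did either strand hold the letters TGACAG (bound by MEIS and PKNOX), TGATNNAT (bound by PBX with Hox), GGTGTGA (bound by T-box factors) or AGGTCA (bound by retinoic acid receptors). Of 32851 windows of the same length, 15.9, 7.7, 3.3 and 14.0% held them in that order, and the absence says only that these letters are not in these windows.

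The libraries held 33359322 to 49523086 counts on genes, and their scaling factors by the trimmed mean of M-values (TMM) ran from 0.883 in Tbx20EH1Mut replicate 3 to 1.06 in wild-type replicate 2. Cardiomyocyte markers summed to 25450 to 28790 CPM (counts scaled to library size) in wild-type and 23290 to 30260 CPM in Tbx20EH1Mut libraries, and none of the 8 was called. Of 17163 genes that passed the filter on low counts, 5024 (29.3%) had an adjusted p of at most 0.05 in edgeR's quasi-likelihood test after Benjamini-Hochberg adjustment, 2406 (14%) higher and 2618 (15.3%) lower in Tbx20EH1Mut hearts, and these are the genes named called, risen or fallen here. Without wild-type replicate 3, wild-type replicate 4 or Tbx20EH1Mut replicate 4 only 3061, 3001 and 3028 genes were called. With upper-quartile scaling the split became 2859 higher of 4856 called. The targeted gene, *Tbx20*, was present in all libraries, with 368 ± 11.1 CPM (SD, n = 4) in wild-type hearts against 267 ± 44.9 CPM (SD, n = 4) in Tbx20EH1Mut hearts, a log2 fold change of -0.46 ± 0.13 (SE) with an adjusted p of 0.0273 in the same edgeR test. That call was lost without wild-type replicate 3 (0.0726), wild-type replicate 4 (0.0712), Tbx20EH1Mut replicate 1 (0.063) or Tbx20EH1Mut replicate 2 (0.0662). It was also lost with upper-quartile scaling (0.0608) and with glmTreat at 0.5 (0.757). The same held with the mean log2 CPM of foregut epithelium markers as a covariate (0.194, log2 fold change -0.33).

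All 8 TALE genes were counted in every library and passed the filter. In Tbx20EH1Mut hearts *Meis2*, *Meis3* and *Pbx4* rose, *Pknox2* fell, and *Meis1*, *Pbx2*, *Pbx3* and *Pknox1* did not pass the test. The 4 calls of 8 stand beside 29.3% of all genes tested, the 3 rises beside 14% and the single fall beside 15.3%. All 4 also changed by 0.5 or more on the log2 scale, and 24.6% of all genes tested met both criteria. The libraries of the genotypes did not overlap for 5 of the 8 (*Meis2*, *Meis3*, *Pbx2*, *Pbx4* and *Pknox2*), against 30.5% of all genes tested. The median log2 fold change was 0.14 over the 8 genes and 0.01 over all genes tested. In RNA of whole hearts, a lower level can come from fewer cells of a type or from less RNA per cell, and a higher level from the opposite, and these cannot be told apart.

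*Meis2* (ENSMUSG00000027210, chr2:115863064-116065839 of GRCm38, minus strand) showed the change with the smallest p-value of the 8 and roughly doubled. Wild-type replicates 1 to 4 gave 91.5, 120, 90.5 and 90.5 CPM, and Tbx20EH1Mut replicates 1 to 4 gave 197, 198, 223 and 200.8 CPM. Every mutant library was above every wild-type library, wild-type replicate 2 stood above the other wild-type libraries, and Tbx20EH1Mut replicate 3 above the other mutant ones. The mean went from 98.0 ± 14.5 CPM (SD, n = 4) to 204.7 ± 12.1 CPM (SD, n = 4), a log2 fold change of 1.06 ± 0.12 (SE), with a 95% confidence interval of 0.79 to 1.33 and an adjusted p of 0.000405. The product is the MEIS protein that embryos need in cardiac neural crest and outflow tract. With both libraries that stood apart left out, a choice made after seeing the data, the log2 fold change was 1.13 with an adjusted p of 0.000125.

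*Meis3* (ENSMUSG00000041420, chr7:16175090-16186504, plus strand), a MEIS gene best known from hindbrain patterning, also rose, by less. It was read at 29.2, 28.2, 30.4 and 29.6 CPM in the wild-type libraries, which lay close together, and at 34.6, 41.9, 45.8 and 45 CPM in the Tbx20EH1Mut libraries. The groups did not overlap, and Tbx20EH1Mut replicate 1 was the mutant library nearest to the wild-type ones. The mean rose from 29.4 ± 0.93 to 41.8 ± 5.10 CPM (SD, n = 4 each), which is a log2 fold change of 0.51 ± 0.11 (SE; 95% interval 0.26 to 0.76, adjusted p = 0.00946 in the same edgeR test). In edgeR's glmTreat, which asks for a change larger than 0.5 on the log2 scale, the adjusted p was 0.601.

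*Meis1* (ENSMUSG00000020160, chr11:18879817-19018985, minus strand), known for haematopoietic stem cells and for a role in heart development, gave 67.4, 97.5, 77.0 and 77.2 CPM in the wild-type libraries and 89.6, 72.0, 73.4 and 77.6 CPM in the Tbx20EH1Mut libraries. The groups overlapped over most of their range, and wild-type replicate 2 was again the highest wild-type library. Means were 79.8 ± 12.7 and 78.15 ± 7.99 CPM (SD, n = 4 each), with a log2 fold change of -0.03 ± 0.13 (SE), an interval of -0.32 to 0.26 and an adjusted p of 0.882. The sign of this small difference turned in 5 alternative fits, so no direction is given for *Meis1*. Of its 10532 exon bases, 18.3% also belong to the predicted genes *Gm37818* on the same strand and *Gm16140* on the opposite strand. These 2 were given 183 and 60 counts over the 8 libraries, against 25860 for *Meis1*.

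**Figure D1:**
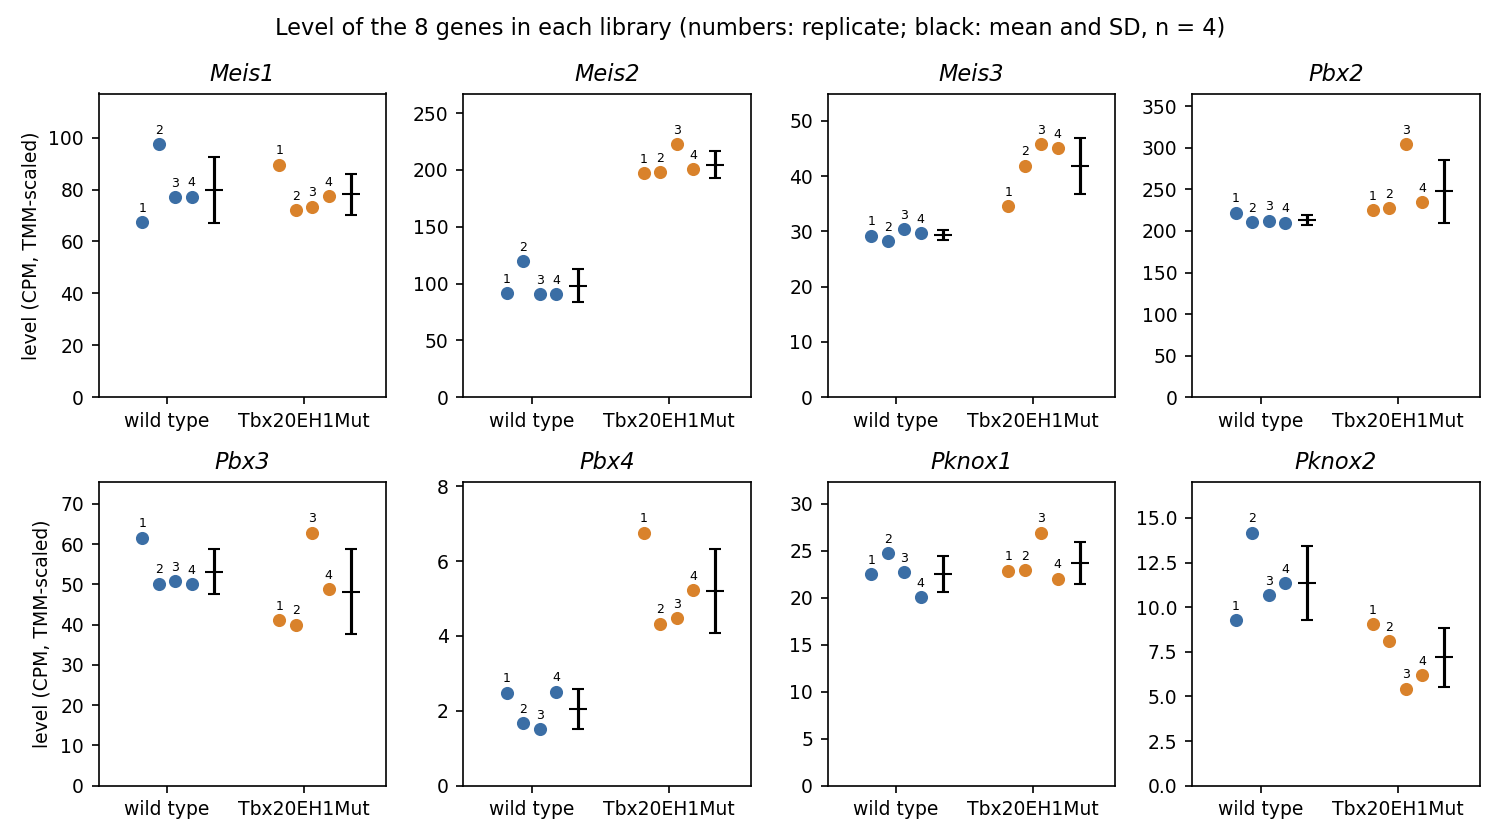
Level of each of the 8 TALE genes in CPM (vertical axes, linear and starting at 0) for the 4 wild-type (blue) and 4 Tbx20EH1Mut (orange) libraries, with the replicate number above each point and the mean and SD in black. The *Meis2*, *Meis3*, *Pbx4* and *Pknox2* points of the genotypes are apart, those of *Pbx2* are apart by a narrow margin, and those of *Meis1*, *Pbx3* and *Pknox1* overlap.

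Among the PBX genes, which encode the Hox-binding subunit, only *Pbx4* was called. *Pbx4* (ENSMUSG00000031860, chr8:69832491-69872292, plus strand) encodes a PBX protein best known in the testis of adult mice, and had the fewest counts of the 8. It was read at 2.49, 1.67, 1.51 and 2.51 CPM in wild-type libraries, from 76 to 115 counts each, and at 6.76, 4.33, 4.47 and 5.22 CPM in Tbx20EH1Mut libraries, from 143 to 261 counts each. The lowest mutant library was above the highest wild-type library. The mean rose from 2.04 ± 0.53 to 5.20 ± 1.11 CPM (SD, n = 4 each), which is a log2 fold change of 1.35 ± 0.26 (SE; 95% interval 0.78 to 1.91, adjusted p = 0.00453 in the same edgeR test). When the mean log2 CPM of the foregut epithelium markers (listed with the other cell type markers) was added as a covariate, the log2 fold change was 1.21. The adjusted p was then 0.0595 in the edgeR test.

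*Pbx2* (ENSMUSG00000034673, chr17:34591266-34597400, plus strand) is a widely expressed PBX gene. Wild-type libraries gave 222, 210.3, 212 and 209.7 CPM, and Tbx20EH1Mut libraries gave 225, 227, 305 and 235 CPM. The groups were apart by less than 3 CPM, and Tbx20EH1Mut replicate 3 was far above the other mutant libraries. From 214 ± 5.82 to 248 ± 37.95 CPM (SD, n = 4 each) the log2 fold change was 0.22 ± 0.12 (SE), with an interval of -0.06 to 0.49 and an adjusted p of 0.202. With the mean log2 CPM of the tested neural tube and neural crest markers as a covariate it was 0.28 with an adjusted p of 0.0448. Of its 3640 exon bases, 227 also belong to *Gpsm3*, which was given 2132 counts against 73766 for *Pbx2*.

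*Pbx3* (ENSMUSG00000038718, chr2:34171457-34373142, minus strand), which is needed for breathing control after birth and adds to the role of other PBX genes in the outflow tract, did not pass the test. The wild-type libraries gave 61.6, 50.2, 50.8 and 50.03 CPM and the Tbx20EH1Mut libraries 41.1, 40.0, 62.9 and 48.9 CPM. Tbx20EH1Mut replicate 3 was the highest of all 8 libraries, while the other 3 mutant libraries were below every wild-type library. The log2 fold change was -0.14 ± 0.15 (SE; interval -0.48 to 0.20, adjusted p = 0.511), and it was 0.15 in the fit with the foregut covariate.

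The PKNOX genes, whose products compete with MEIS proteins for PBX, differed from each other in their result. *Pknox2* (ENSMUSG00000035934, chr9:36890982-37147407, minus strand) was read at 9.29, 14.2, 10.7 and 11.3 CPM in the wild-type libraries and at 9.04, 8.10, 5.44 and 6.18 CPM in the mutant ones. The groups did not overlap, but the lowest wild-type and the highest mutant library (both replicate 1) were close. The mean fell from 11.4 ± 2.06 to 7.19 ± 1.67 CPM (SD, n = 4 each), which is a log2 fold change of -0.66 ± 0.20 (SE; 95% interval -1.11 to -0.21, adjusted p = 0.0354 in the same edgeR test). It is the call closest to the threshold. The adjusted p was 0.0535 with upper-quartile scaling, 0.339 with glmTreat at 0.5, 0.0513 with a replicate block, 0.112 without wild-type replicate 2 and Tbx20EH1Mut replicate 3 together, 0.0888, 0.0692 and 0.0808 without wild-type replicates 2, 3 and 4, and 0.0688 and 0.0998 without Tbx20EH1Mut replicates 3 and 4, with a negative fold change each time. With the foregut covariate the log2 fold change was -1.19 (adjusted p = 0.00524).

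*Pknox1* (ENSMUSG00000006705, chr17:31564749-31607684, plus strand), a gene that early embryos require, had, with *Meis1*, the smallest fold change of the 8. Wild-type libraries gave 22.5, 24.8, 22.8 and 20.1 CPM and Tbx20EH1Mut libraries 22.9, 22.9, 26.9 and 22.05 CPM, with the groups overlapping. The log2 fold change was 0.07 ± 0.12 (SE), the interval -0.18 to 0.33 and the adjusted p 0.655. The upper end of this interval is below the log2 fold changes of *Meis2*, *Meis3* and *Pbx4*.

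**Figure D2:**
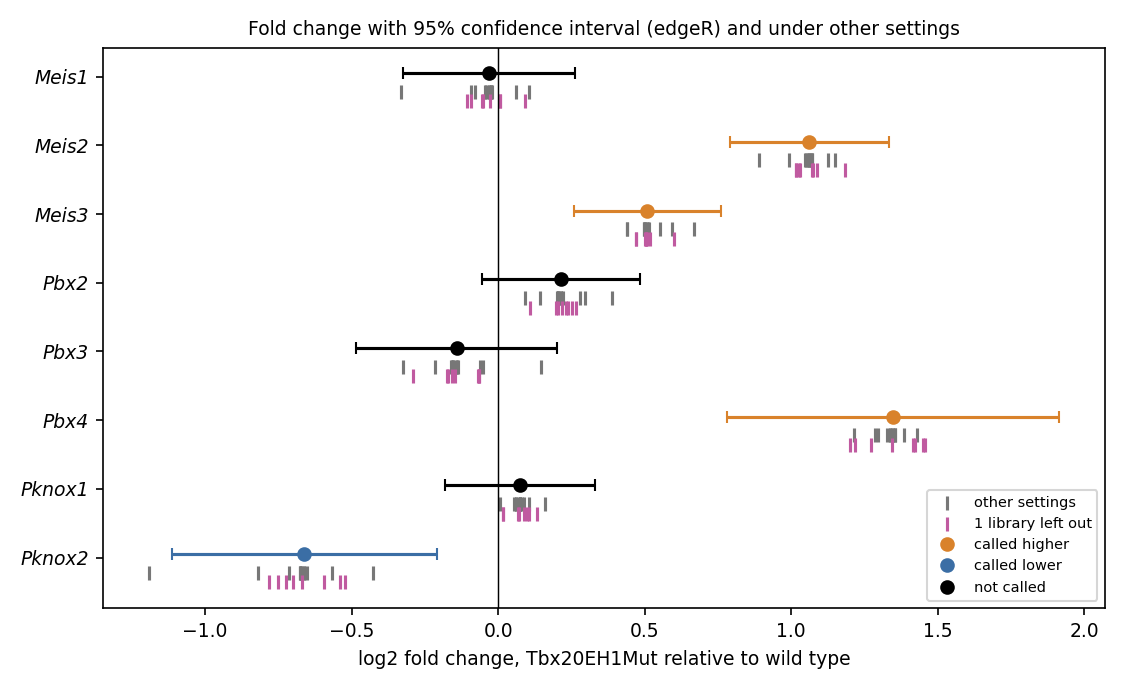
Log2 fold change of each gene, Tbx20EH1Mut relative to wild type (horizontal axis), as a point with its 95% confidence interval from edgeR, coloured by call. Grey ticks are the other settings and pink ticks the fits with 1 library left out, and for *Meis2*, *Meis3*, *Pbx4* and *Pknox2* every tick lies on the same side of 0 as the point.

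Set per kilobase of exon, which allows genes to be compared, *Pbx2* was the highest of the 8 in both genotypes, at 58.7 ± 1.6 CPM per kb in wild-type and 68.1 ± 10.4 CPM per kb in Tbx20EH1Mut hearts (SD, n = 4 each). In wild-type hearts *Meis3* (9.26 CPM per kb), *Pbx3* (8.70), *Meis2* (8.14) and *Meis1* (7.58) followed, and each overlapped with its neighbour in this order over the libraries. *Pknox1* came next at 3.27 CPM per kb, apart from *Meis1* above and *Pknox2* below, while *Pknox2* (1.10) and *Pbx4* (0.923) overlapped. In Tbx20EH1Mut hearts the order became *Pbx2*, *Meis2* (17.0 CPM per kb), *Meis3* (13.2), *Pbx3* (7.89), *Meis1* (7.42), *Pknox1* (3.44), *Pbx4* (2.34) and *Pknox2* (0.696). Here *Meis2* was apart from both neighbours, *Pbx3* and *Meis1* alone overlapped, and *Pbx4* was above *Pknox2* with no overlap. Among all genes tested, *Meis2* moved from percentile 67.4 to percentile 81.7 of the level per length, *Pbx4* from 28.8 to 42.2, and *Pknox2* from 31.3 to 23.1, while *Pbx2* was at 94.4 and 94.7.

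The 3 MEIS genes had near-equal parts of the MEIS messages in wild-type hearts and unequal parts in Tbx20EH1Mut hearts. By level per length, *Meis1* made 30.2 ± 2.21% of the sum in wild-type and 19.8 ± 2.75% in mutant hearts, *Meis2* 32.5 ± 2.12% and 45.2 ± 1.17%, and *Meis3* 37.3 ± 3.81% and 35.0 ± 3.03% (SD, n = 4 each). For *Meis1* and *Meis2* the libraries of the genotypes did not overlap in this share, and for *Meis3* they did. The ratio of *Meis2* to *Meis1* was 1.19, 1.07, 1.03 and 1.02 in wild-type and 1.92, 2.41, 2.65 and 2.26 in Tbx20EH1Mut replicates 1 to 4, so wild-type libraries held nearly equal levels and every mutant library an excess of *Meis2*. These shares and ratios do not depend on how libraries are scaled. The MEIS sum was 23.2 to 28.1 CPM per kb in wild-type and 35.8 to 39.9 CPM per kb in mutant libraries. The sums did not overlap under TMM, RLE, upper-quartile or library-size scaling, but they did on the TPM scale, where the length-scaled counts of every library have the same sum, at 51.4 to 87.6 against 73.2 to 85.6, with wild-type replicate 2 the highest of all 8 libraries.

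The PKNOX sum overlapped between genotypes, at 4.01 to 4.96 CPM per kb in wild-type and 3.80 to 4.44 CPM per kb in Tbx20EH1Mut libraries. Within it *Pknox1* made 74.9 ± 2.92% in wild-type and 83.1 ± 3.96% in mutant hearts (SD, n = 4 each). *Pknox1* exceeded *Pknox2* by a ratio of 3.63, 2.62, 3.20 and 2.65 in wild-type and 3.80, 4.24, 7.43 and 5.35 in Tbx20EH1Mut replicates 1 to 4. The groups were apart by a small step between wild-type replicate 1 and Tbx20EH1Mut replicate 1. On the TPM scale the median log2 ratio of all genes averaging 1 CPM or more was -0.27, against -0.02 with TMM, and relative to that median *Meis2* was at 1.05, *Meis3* at 0.52, *Pbx4* at 1.40 and *Pknox2* at -0.65. The plain log2 ratios on that scale were 0.79 for *Meis2*, 0.26 for *Meis3*, 1.13 for *Pbx4* and -0.91 for *Pknox2*. There *Meis3* overlapped between genotypes, at 20.4 to 27.7 against 25.6 to 30.96 TPM, as did *Pknox2*, at 1.99 to 4.28 against 0.965 to 2.06 TPM, while *Meis2* and *Pbx4* did not.

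**Figure D3:**
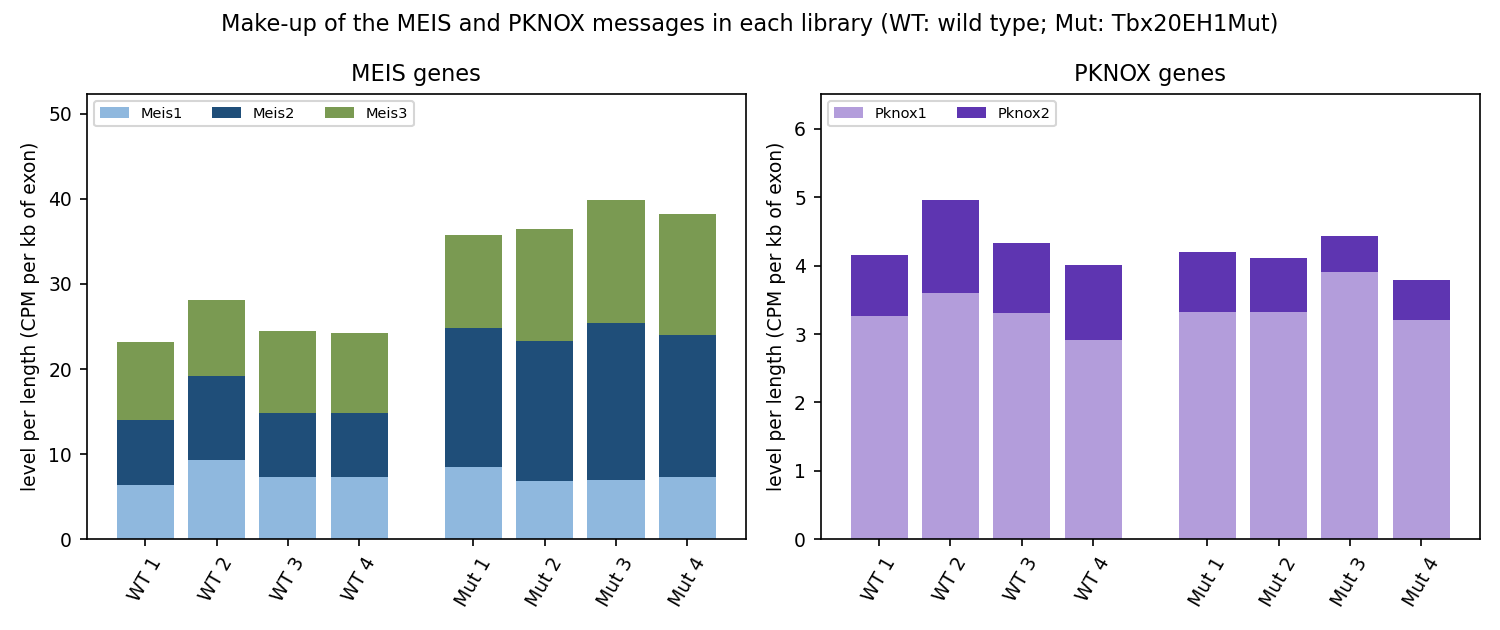
Stacked levels per length (CPM per kb of exon, linear axes from 0) of *Meis1*, *Meis2* and *Meis3* (left) and of *Pknox1* and *Pknox2* (right) in each library. The *Meis2* segment is larger in all 4 Tbx20EH1Mut libraries than in any wild-type library, and the *Pknox2* segment is smaller.

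For each called member, the genes with the most similar profile were sought among 10463 tested genes averaging 5 CPM or more, as the smallest root mean square (RMS) difference of log2 CPM, each gene centred on its own mean over the 8 libraries. The closest to *Meis2* were *Arsa*, which encodes the lysosomal arylsulfatase A (RMS 0.0756), *Angpt2*, an angiopoietin ligand of the TEK receptor (0.0916), and *Ak4*, a mitochondrial adenylate kinase (0.0967), where the median gene was at 0.62. *Arsa* had 9.37 ± 0.69 CPM in wild-type hearts against 19.6 ± 1.57 CPM in mutant hearts, a log2 fold change of 1.06 like that of *Meis2*. The closest to *Meis3* were *Wwtr1*, the Hippo pathway coactivator TAZ (0.0516), *Spata6* (0.0543) and *Rcan1*, a regulator of calcineurin (0.0625), with the median gene at 0.392. *Wwtr1* was at 57.4 ± 2.38 and 82.7 ± 9.72 CPM. *Pbx4*, with few counts, had looser neighbours, in *Pygo1*, a Wnt pathway coactivator (0.182), *Igfbp2*, a binding protein of insulin-like growth factors (0.187), and *Plod2*, a lysyl hydroxylase of collagen (0.197), against a median of 0.791. The closest to *Pknox2* were *Exo1*, a DNA repair exonuclease (0.0554), *Mcm7*, a subunit of the replicative helicase (0.0578), and *Clpb* (0.0713), against a median of 0.448. *Mcm7* had 201 ± 38.2 CPM in wild-type hearts against 136 ± 29.7 CPM in mutant hearts. These measures describe 8 libraries of 2 genotypes and share the genotype difference that led to each member's call.

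The Hox genes of paralog groups 1 to 5, whose proteins bind DNA with PBX, mostly rose. Of 15 listed, 11 passed the filter and 10 of them rose, none fell and *Hoxc4* did not pass (log2 fold change 1.68, adjusted p = 0.0677 by edgeR), beside 14% of all genes tested that rose. The median log2 fold change was 2.71, and with 1 library or the pair that stood apart left out, 9 to 11 rose of 11 to 13 then tested. *Hoxa4*, *Hoxb1* and *Hoxb5* passed the filter only through the mutant libraries, since all 4 mutant but not all 4 wild-type libraries lay above its floor of 0.264 CPM. Without these 3, 7 of 8 rose and the median was 2.22. The 8 include *Hoxc4*, which lay above the floor in 2 wild-type and 3 mutant libraries. *Hoxa5* had the largest log2 fold change of the 8 (3.06 ± 0.34, adjusted p = 0.000363 by edgeR), at 0.524 to 1.79 CPM in wild-type and 6.63 to 10.9 CPM in mutant libraries. *Hoxb1*, the first Hox gene of its cluster and a classical target of PBX and retinoic acid, was read at 0.109 to 4.52 CPM in wild-type libraries and at 12.8 to 35.2 CPM in Tbx20EH1Mut libraries. *Hoxb5* was at most 0.143 CPM in wild-type libraries, on 17 counts in all, and at least 0.822 CPM in mutant ones, on 177 counts. No fold is given for either. The 4 that failed the filter, *Hoxc5*, *Hoxd1*, *Hoxd3* and *Hoxd4*, had 14 to 157 counts over all 8 libraries.

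Of 14 genes described as targets of Hox-TALE complexes or of MEIS proteins, 10 were tested, 7 rose and 1 fell (median log2 fold change 1.87), beside 14% and 15.3% of all genes tested. Of the 7 rises 5 are Hox genes of the previous list, and the other 2 are *Sst* and *Pax6*, which is also counted as a neural tube marker. *Sst*, which encodes somatostatin, had 4 counts over the wild-type and 66 over the Tbx20EH1Mut libraries, or 0 to 0.0815 CPM against 0.292 to 0.557 CPM. It passed the filter only through the mutant libraries, so no fold is given. Without it and *Hoxb1* 5 of 8 rose and the median log2 fold change was 1.6. *Hif1a*, the oxygen-responsive factor that MEIS1 activates in blood stem cells, fell from 309 ± 5.13 to 224 ± 34.7 CPM, a change of -0.46 ± 0.13 on the log2 scale (adjusted p = 0.0216). That call was lost without wild-type replicate 3 (0.0519), wild-type replicate 4 (0.0605), Tbx20EH1Mut replicate 2 (0.0518) or Tbx20EH1Mut replicate 4 (0.0518). *Pf4* and the cell cycle inhibitor *Cdkn1a* did not pass the test (adjusted p of 0.514 and 0.81).

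The remaining TALE homeobox genes, which lack the PBX-binding domain of MEIS and PKNOX, moved in both directions. Of 9 tested, 4 rose, 1 fell and 4 were not called (median log2 fold change 0.40), beside 14% higher and 15.3% lower among all genes tested. With 1 library or the pair that stood apart left out, 3 to 4 rose and 1 to 2 fell. Without *Mkx*, which was not called and passed the filter only through the mutant libraries, the median was 0.09. *Irx6* (log2 fold change 1.44 ± 0.23, adjusted p = 0.002) and *Irx3* (1.34 ± 0.15, adjusted p = 0.000301) rose the most, *Irx3* from 32.3 ± 6.11 to 81.6 ± 7.20 CPM. *Irx4*, which marks ventricular myocardium, fell from 110 ± 15.3 to 71.8 ± 7.28 CPM (-0.62 ± 0.13, adjusted p = 0.00758). Of 6 partners of PBX outside the Hox genes, 2 were tested and neither was called by edgeR, *Pbxip1* with a log2 fold change of 0.36 (adjusted p = 0.112) and *Zfp462* with 0.26 (adjusted p = 0.327). When wild-type replicate 1 was left out, 1 of the 2 was called higher. *En1* had no count in any library.

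Among genes that respond to retinoic acid, the vitamin A derivative to which *Meis* genes also respond, 8 of 9 listed were tested, 4 rose, 1 fell and 3 were not called (median log2 fold change 1.14), again beside 14% and 15.3%. *Cyp26a1*, an enzyme that degrades retinoic acid, rose from 3.07 ± 0.69 to 9.91 ± 2.30 CPM, a change of 1.69 ± 0.24 on the log2 scale (adjusted p = 0.00115 by edgeR). *Tgm2*, a transglutaminase, fell from 159 ± 32.4 to 76.6 ± 14.0 CPM (-1.05 ± 0.18, adjusted p = 0.00256). With 1 library or the pair that stood apart left out, 3 to 6 rose.

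**Figure D4:**
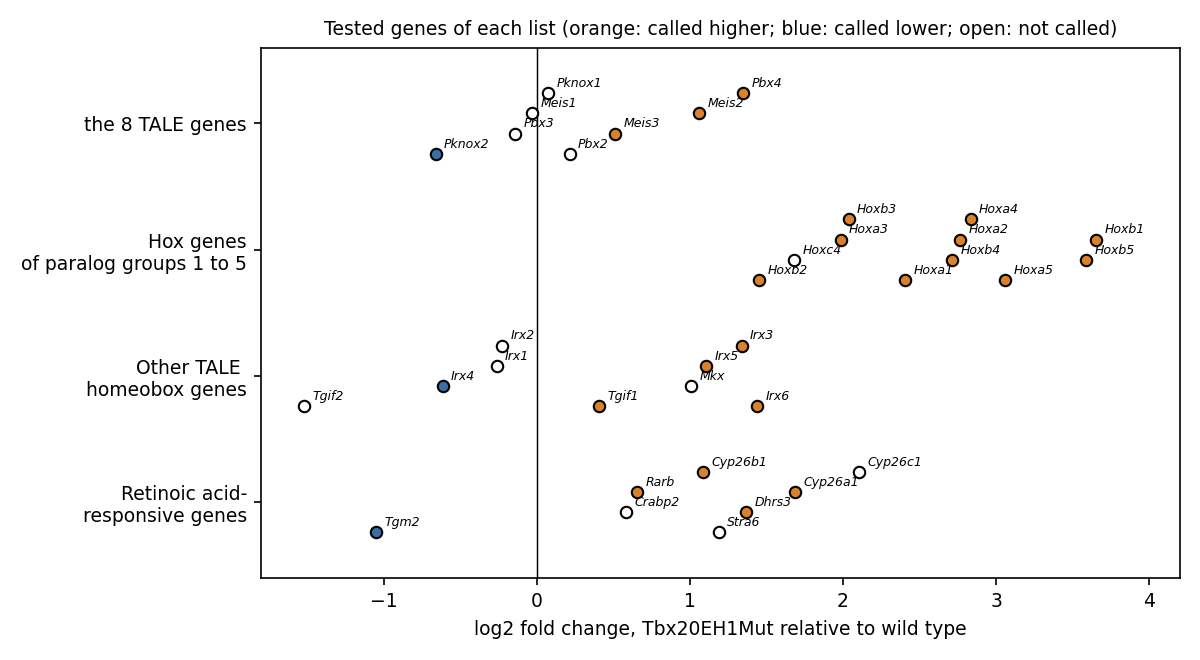
Log2 fold change, Tbx20EH1Mut relative to wild type (horizontal axis), of every tested gene in 4 groups (vertical position within a group only separates the points). Called genes are orange where higher and blue where lower, open points were not called; of 11 Hox genes 10 lie to the right and are called, 3 of them tested only through the mutant libraries, while the 8 TALE genes, the other TALE genes and the retinoic acid-responsive genes lie on both sides of 0.

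Markers of cell types in and beside the heart also moved with genotype, and their part in the results above was not tested beyond the covariate fits given. Second heart field markers summed to 43.0 to 75.8 CPM in wild-type and 210 to 361 CPM in Tbx20EH1Mut libraries, with 4 of 6 called higher beside 14% of all genes tested, and *Isl1* among them rose by 2.60 on the log2 scale (adjusted p = 0.000378 by edgeR). Foregut epithelium markers summed to 189.8 to 299 and 656 to 902 CPM, most of it from *Krt8* and *Krt18*. Of these 11 markers 5 were called higher, again beside 14%, but 8 of the 11, 2 of the 5 among them, passed the filter only through the mutant libraries. The other 3 (*Epcam*, *Krt8* and *Krt18*) were all called. With 1 library left out the number ran from 3 to 10. It was 3 without wild-type replicate 3 or 4 or without Tbx20EH1Mut replicate 1, 2 or 4. It was 4 without wild-type replicate 1, 7 without Tbx20EH1Mut replicate 3, and 10 without wild-type replicate 2. The last of these is the wild-type library with the highest sum and also with the highest *Meis1*, *Meis2* and *Pknox2*. The sums did not overlap between genotypes. The covariate of the foregut fit was not this sum but the mean log2 CPM of the 11 markers, each with equal weight. Their median log2 fold change was 2.38, so that covariate also differed with genotype. A covariate fit therefore cannot fully tell genotype and foregut marker level apart. In that fit the log2 fold change was 0.89 for *Meis2* (adjusted p = 0.00349), 0.67 for *Meis3* (0.0114), 1.21 for *Pbx4* (0.0595, no longer called) and -1.19 for *Pknox2* (0.00524), and *Tbx20* was no longer called (0.194).

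Erythroid markers went the other way, from 1758 to 4596 CPM in wild-type to 319 to 1025 CPM in mutant libraries, and all 6 fell, beside 15.3% of all genes tested. Endothelial and endocardial markers had 3 of 6 called higher, beside 14%, while *Cdh5* (log2 fold change -0.13), *Tek* (-0.25) and *Nfatc1* (-0.42) were not called. With 1 library left out 2 to 3 were called higher, and without wild-type replicate 1 a further 2 were called lower. Their sums were 429 to 584 and 553 to 624 CPM. Proepicardial markers had 1 of 6 called higher (*Wt1*), with sums of 58.4 to 179 and 122 to 166 CPM. Of 6 neural tube markers 3 were tested and *Pax6* was called higher, while *Sox1* and *Olig2* had 3 counts each over all libraries and *Dbx1* none. Their sum was 5.80 to 11.8 CPM in wild-type and 10.6 to 13.4 CPM in Tbx20EH1Mut libraries. Of 3 neural crest markers only *Sox10* was tested and it was not called, and their sums were at most 1.21 CPM in wild-type and at most 1.68 CPM in mutant libraries. Somite markers had 1 of 4 tested called higher (*Tcf15*), with sums of 1.63 to 11.0 and 3.69 to 24.01 CPM, and *Uncx* had no count. The number called higher was 2 without wild-type replicate 2, and 3 without wild-type replicate 2 and Tbx20EH1Mut replicate 3 together.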

How the data were processed

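RNA was measured in 8 libraries of E9.5 mouse hearts, 4 wild-type and 4 homozygous Tbx20EH1Mut, each a separate pool of 3 hearts. The authors deposited 1 table of raw counts per library, not normalized, for 49315 Ensembl genes. Per the submitters' processing notes, Trimmomatic 0.36, STAR 2.5.2b and the build GRCm38 (mm10) were used; the counting tool and strand setting are not given in the sources used here, so reads of overlapping genes are uncertain. Symbols of 48970 genes came from GENCODE M21, which gave the same ends for 91.4% of them, *Pknox1* not among these. Groups came from the genotype labels.

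Counts were filtered (filterByExpr), scaled by TMM and tested with edgeR 4.0.16 in R 4.3.3 (glmQLFit, glmQLFTest, genotype as the only term), with Benjamini-Hochberg adjustment over 17163 genes and a threshold of 0.05. Levels are CPM over the effective library size, and levels per length divide by the summed exon length of the tables. The test was also run on simulated counts, where many changed genes were missed, most of all those with small changes, so a gene that did not pass is not shown to be equal, and where the share of false calls was above the threshold, so calls near it are less certain than their adjusted p states. Library totals of 33359322 to 49523086 were compared between genotypes with an exact two-sided permutation test (p = 0.143, smallest possible 0.0286), and the spread between replicates of each genotype was above sampling noise. A count of 3 corresponds to 0.0598 to 0.0938 CPM, and p-values rest on 4 pools per genotype.

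The 8 genes and all gene lists were chosen with earlier results of these data known. Named genes are the 8 members, *Tbx20*, the 3 genes most alike to each called member, and up to 2 called rises and 2 called falls per gene list. Other genes in the text (*Hoxc4*, *Hoxa5*, genes that were not tested or not called, and cell type markers) were named after their values were seen. A few list genes are not reported here and were left out of the lists. Alternatives were RLE, upper-quartile, library-size and TPM-like scaling, DESeq2 1.42.0, limma-voom 3.58.1, glmTreat, no filter beyond 1 count, a minimum of 10 counts per library, a replicate block, foregut or neural marker levels as covariates, and each library left out. Python 3.11.15, pandas 2.3.3, numpy 2.4.6 and matplotlib 3.10.9 were used for joins and plots.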

Additional observations from a re-analysis of the deposited data

Results flagged for a closer look

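In 4 of 20 groups tested, the 4 libraries of 1 genotype for 1 gene or 1 ratio of genes, a single library lay far from the other 3 relative to the range of the group; chance gives about 1 in 20 groups. *Meis2* was at 120 CPM in wild-type replicate 2, with the others at 90.5 to 91.5 CPM. *Meis2* was at 223 CPM in Tbx20EH1Mut replicate 3, with the others at 197 to 201 CPM. *Pbx2* was at 305 CPM in Tbx20EH1Mut replicate 3, with the others at 225 to 235 CPM, and *Pbx3* was at 61.6 CPM in wild-type replicate 1, with the others at 50 to 50.8 CPM. Tbx20EH1Mut replicate 3 was also the library with the lowest TMM factor (0.883) and the largest distance to the rest of its genotype (RMS 0.896 on the log2 scale).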

How the results depend on the processing

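*Meis2* was called higher in every fit run (log2 fold change 0.89 to 1.15, and 1.02 to 1.18 with 1 library left out). Over all alternatives 2 to 5 of the 8 genes were called. With glmTreat at 0.5, 1220 genes and 2 of the 8 (*Meis2* and *Pbx4*) were called, fewer because a larger change is asked for. With 1 library left out, 3001 to 6586 genes and 3 to 4 of the 8 were called, and 3061, 3001 and 3028 genes were called without wild-type replicate 3, wild-type replicate 4 and Tbx20EH1Mut replicate 4. Without wild-type replicate 2 and Tbx20EH1Mut replicate 3, 4566 genes and 3 of the 8 were called, and *Pknox2* was not (log2 fold change -0.43, adjusted p = 0.112). The sign of *Meis1* turned with upper-quartile scaling (0.062), without wild-type replicate 2 (0.092), without Tbx20EH1Mut replicate 2 (0.005) or 3 (0.008), and without both libraries that stood apart (0.107), and its value ran from -0.107 to 0.092 with 1 library left out. The sign of *Pbx3* turned with the foregut covariate (0.146). The cause was not tested. Same-numbered replicates deviated from their group means with correlations over genes of -0.27, 0.34, 0.06 and 0.06, so the numbers were not read as pairs. A replicate block called 3945 genes, 3802 of them among the 5024, and 3 of the 8, with *Pknox2* at an adjusted p of 0.0513 by edgeR. On the TPM scale *Pbx2* (-0.05) and *Pknox1* (-0.19) had negative log2 ratios, and *Meis3* was at 0.26 with overlapping groups. Depth limits *Pbx4* most, at 76 to 261 counts per library.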
